A study of Zea mays with 2 samples.

Results

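Genes for ribosomal proteins and translation factors were measured by 42 probe sets of 29 genes, among 17621 maize probe sets on the array. Members were taken by name from the 1452 probe sets paired with 1 gene, which cover 1108 genes, using names that begin with rpl, rps, rpp, eif, tif or ef1. By the letter of that rule 41 probe sets of 28 genes were found and none of them was a plastid member. The plastid gene prpl35-1, whose name carries a p before rpl, was counted as the plastid member after its signals had been seen. The 16168 probe sets without a gene symbol were not searched by name, so many further ribosomal protein transcripts may be on the array without being members. By compartment, 39 probe sets of 26 genes encoded cytosolic proteins and 1 encoded a plastid protein. The compartment was read from gene names, since the annotation used here states none, and a ribosomal protein name with no organelle prefix was taken as cytosolic. RPL10, RPL19, rpl30, rps6, rps13 and rps21b share their numbers with bacterial-type ribosomal proteins, so their placing is less sure. The same holds for rpl29 and RPS10, the remaining 2 probe sets, which were set apart as a judgement and left without a compartment.

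The D11 group was stem tissue of the dwarf mutant D11 and the WT group was stem tissue of the inbred line Mo17, both taken at tassel emergence with no treatment. D11 is a dominant mutant first seen among progeny of Mo17 pollinated by HN06, a line of unknown pedigree, and was kept by backcrossing to Mo17, B73 and W22. The sources do not state in which of these backgrounds the arrayed D11 plants were, nor how many plants went into an RNA sample. Because 1 array was hybridised per genotype, no difference below has a replicate check and none was tested. In whole stems, fewer cells of a type and less RNA per cell cannot be told apart.

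Cytosolic ribosomes of plants consist of a large and a small subunit, with an acidic stalk of P proteins on the large subunit that recruits and activates elongation factors. Initiation factors bring the small subunit to the capped mRNA and its start codon, and eEF1A delivers each aminoacyl-tRNA to the elongating ribosome. Plastids hold a separate ribosome of bacterial type, and many of its proteins, L35 among them, are encoded in the nucleus and imported. Ribosomal protein mRNAs are abundant in growing tissue, where many cells are making ribosomes.

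The members were mostly bright and close to equal in D11 and WT. Signals are deposited MAS 5.0 intensities on a linear scale, and each log2 ratio is D11 over WT. A control floor was set in each array at the highest signal of its Tag and TrpnX controls, which have no maize target, and lay at 24.7 in D11 and 27.6 in WT. Of the 42 probe sets, 41 were above the floor in both arrays, 37 were above the array median in both (190.6 in D11 and 165.4 in WT), and 31 were over 1000 in both. The brightest 25% of all probe sets by mean log2 signal held 35 of the 42 (83.3%).

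**Figure D1:**
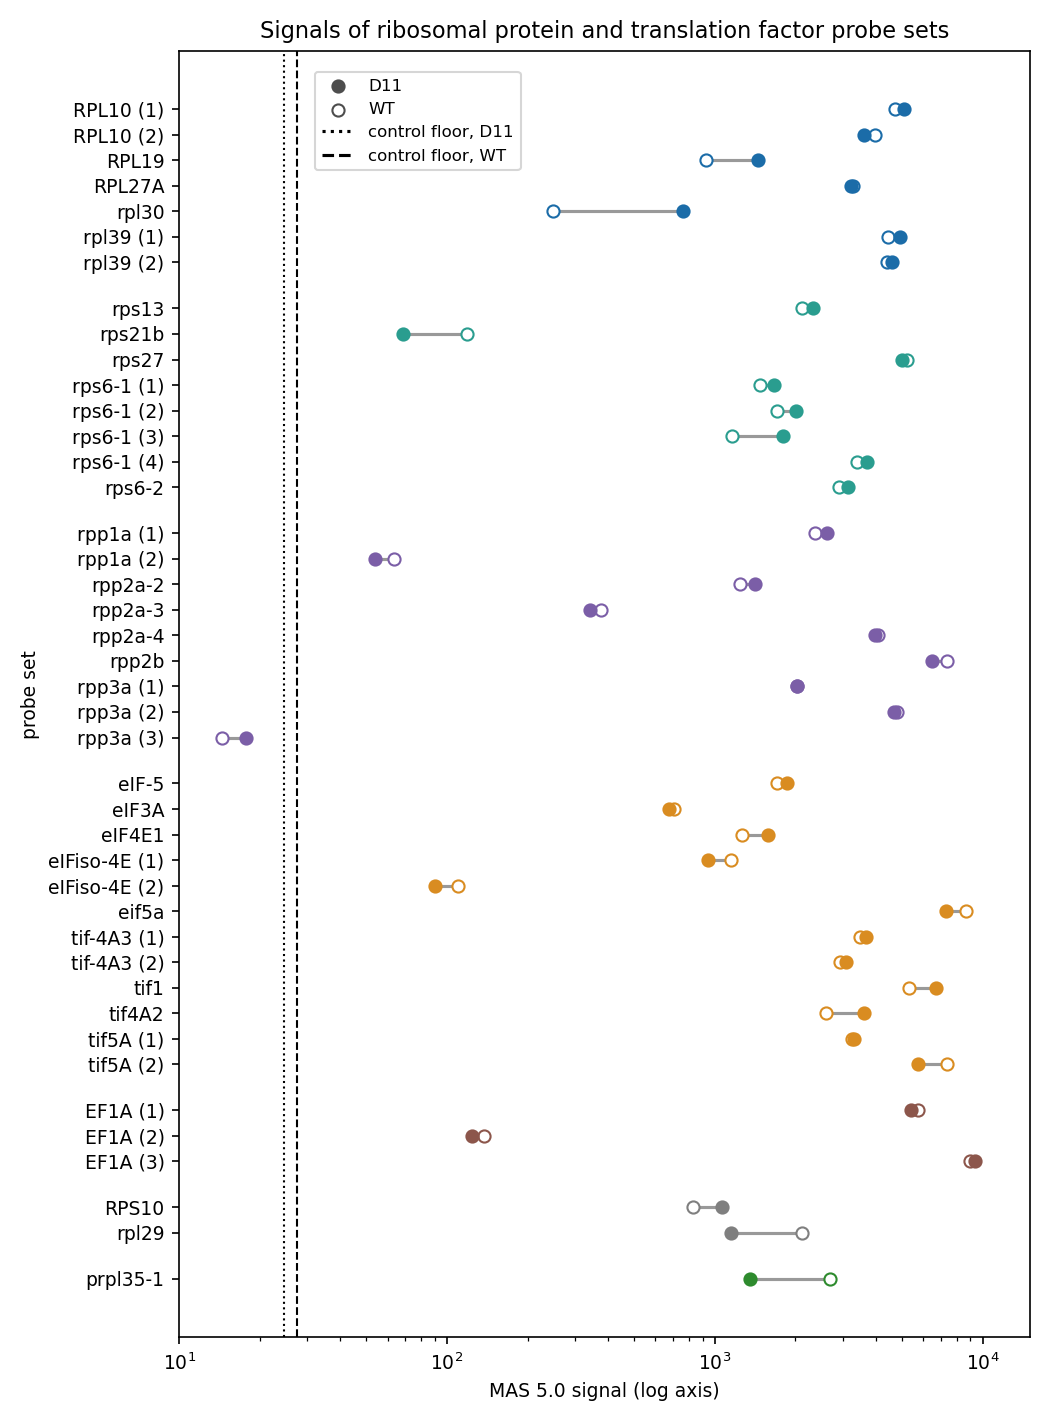
Signal of each of the 42 probe sets in D11 and WT on a log10 axis, grouped by role, with vertical lines at the control floors. For most probe sets the points of both genotypes lie close together, while rpl30 is apart with D11 on the right and prpl35-1, rpl29 and rps21b are apart with WT on the right.

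The median log2 ratio of the 42 members was 0.06, with quartiles at -0.14 and 0.17 and a range from -1.0 to 1.62. In D11, 23 were higher and 19 lower than in WT. Among all maize probe sets the median was 0.03, with quartiles at -0.39 and 0.44. A probe set is called near-equal here when its smaller signal was at least 80% of its larger. Of the members 32 (76.2%) were near-equal, and of all probe sets 41.1%. Strong signals varied less on these arrays. In the brightest 25%, 27 of the 35 members (77.1%) and 56.7% of all probe sets were near-equal, and the SD of the log2 ratio over probe sets was 0.33 for the members and 0.55 for all. The median log2 ratio there was 0.07 for the members and -0.03 for all.

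Only rpl30 was at least 2-fold higher in D11, and no member was at least 2-fold lower. Of all maize probe sets, 9.93% were at least 2-fold higher and 9.83% at least 2-fold lower. Among probe sets above the floor in both arrays these shares were 6.2% and 3.95%. In the brightest 25% they were 2.81% and 3.63%, and 0 of the 35 members there passed in either direction. At the 5-fold threshold of the study's methods, 2.26% of all probe sets were higher and 2.57% lower, and no member passed. At 1.5-fold, 3 members (rpl30, RPL19 and 1 probe set of rps6-1) were higher and 3 (prpl35-1, rpl29 and rps21b) were lower. The shares of all probe sets at 1.5-fold were 19% higher and 17.8% lower, those above the floor in both arrays 15.7% and 10.6%, and those in the brightest 25% 8.51% and 11.1%.

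**Figure D2:**
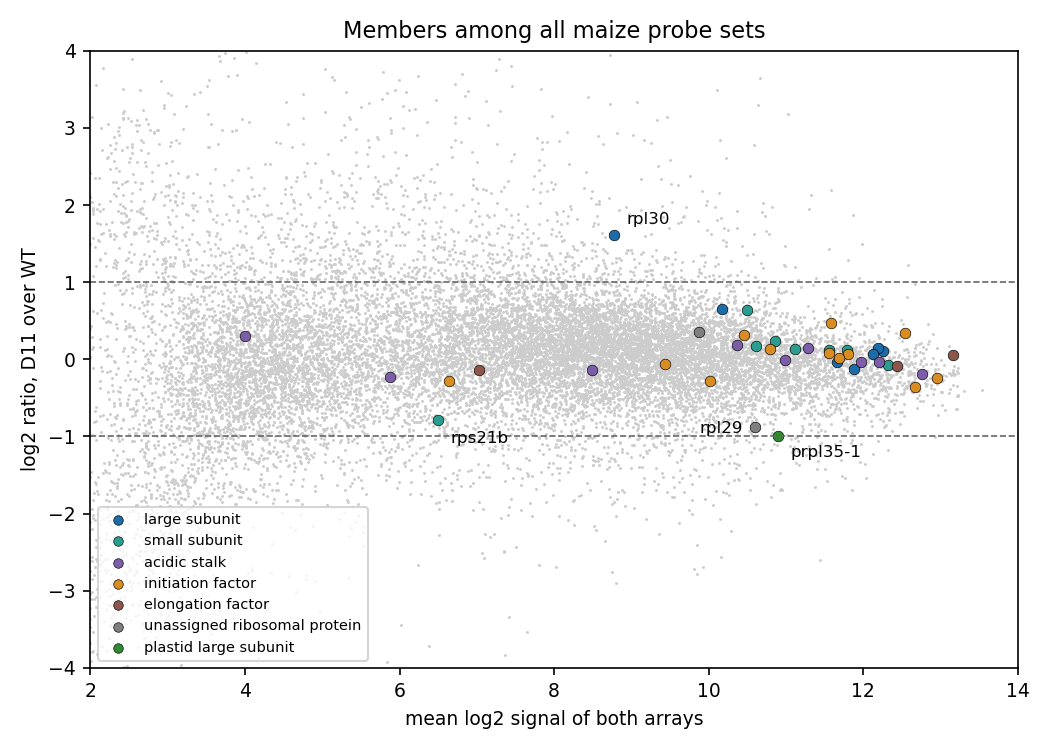
Log2 ratio of D11 over WT against mean log2 signal of both arrays for all maize probe sets (grey, with 912 lying outside the plotted window) and for the members (coloured by role), with dashed lines at 2-fold. Most members lie at the bright right end near 0, and rpl30 is the single member above the upper line.

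Large subunit genes gave the widest range of the cytosolic classes, through rpl30 alone. The 7 probe sets of 5 genes had a median log2 ratio of 0.11, ranging from -0.13 to 1.62, and 5 of the 7 were near-equal. Without rpl30 the highest was RPL19 at 0.65, and the small subunit range of -0.79 to 0.64 was wider. For rpl30 (LOC541668), which encodes the large subunit protein L30, the signal was 764 in D11 against 249 in WT, 3.06 times as high. RPL19 (LOC542284), another gene of the large subunit, was at 1454 in D11 against 924 in WT, a ratio of 1.57. Both probe sets were brighter in D11 and both were well above the floor.

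The other large subunit genes were all near-equal. RPL10, a protein added late in large subunit assembly, gave signals of 5087 in D11 and 4726 in WT on its first probe set. Its second probe set gave 3608 and 3950, so the pair differed in direction. rpl39, whose small product lines the exit tunnel for the nascent chain, gave 4928 and 4442 on one probe set and 4582 and 4381 on the other. These ratios were 1.11 and 1.05. RPL27A gave 3218 in D11 and 3286 in WT.

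In the small subunit, 6 of the 8 probe sets of 5 genes were higher in D11, with a median log2 ratio of 0.13 and a range from -0.79 to 0.64. S6 is the ribosomal protein phosphorylated by S6 kinase downstream of TOR, and its genes filled 5 of these 8 places. The 4 probe sets of rps6-1 (LOC542529) gave signals of 1663, 2016, 1802 and 3704 in D11 and of 1476, 1712, 1156 and 3396 in WT. All 4 were higher in D11, but one probe set, at 1802 and 1156, had a ratio of 1.56 while the others lay between 1.09 and 1.18. rps6-2 was at 3142 in D11 against 2900 in WT, a ratio of 1.08.

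rps21b (LOC542449), for the small subunit protein S21, was the lowest of the small subunit set. With 68.7 in D11 against 118.6 in WT, it was 1.73-fold lower in D11 and below the array median in both. The remaining genes were nearly equal: rps13 gave 2322 in D11 and 2120 in WT, and rps27 gave 4996 in D11 and 5241 in WT.

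The acidic stalk was the most even class of ribosomal proteins. Its 9 probe sets of 6 genes, 1 of them below the floor in both arrays, were all near-equal, and the median log2 ratio was -0.03 as deposited but 0.09 after quantile normalization and 0.12 after lowess centring, so no direction can be given for the family. P1 and P2 proteins bind the stalk base as dimers, and P3 is a plant form. rpp1a gave signals of 2635 in D11 and 2370 in WT on its bright probe set and of 54.1 and 63.4 on a weak one. rpp2b gave 6480 in D11 and 7375 in WT, a log2 ratio of -0.19.

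The 3 P2a genes were all near-equal, with log2 ratios from -0.14 to 0.18. rpp2a-2 gave 1410 in D11 and 1242 in WT, rpp2a-3 gave 342 and 376, and rpp2a-4 gave 3981 and 4064. For rpp3a (LOC542339), 2 probe sets gave 2024 and 4668 in D11 against 2032 and 4791 in WT, with ratios of 0.996 and 0.974. The remaining rpp3a probe set was at 17.8 and 14.4, below the floor in both arrays, and gave no usable fold.

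**Figure D3:**
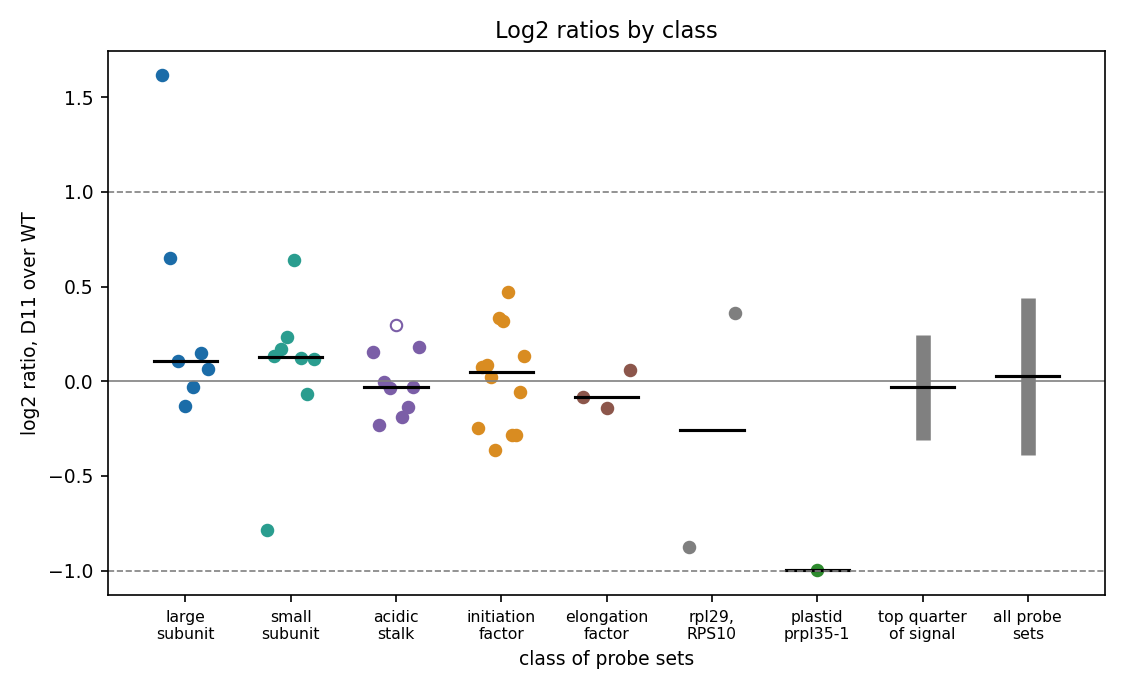
Log2 ratio of D11 over WT for each probe set by class (points), with the class median (bar). The stalk points lie between -0.23 and 0.30, the large subunit class reaches highest through rpl30, and the single plastid probe set lies at -1.0.

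Initiation factors lay on both sides of equal, all within 1.5-fold. The 12 probe sets of 9 genes had a median log2 ratio of 0.05 and a range from -0.36 to 0.47, and 9 were near-equal. At the upper end, tif4A2, for the RNA helicase eIF4A, was at 3600 in D11 against 2596 in WT, a ratio of 1.39. tif1, a GOS2 gene related to eIF1, gave 6682 and 5297, a ratio of 1.26. eIF4E1, for the cap-binding protein, gave 1578 and 1263, a ratio of 1.25.

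The plant isoform of the cap-binding protein was on the other side of equal. eIFiso-4E (LOC541708) gave 942 in D11 and 1145 in WT on its bright probe set and 90.3 and 110 on the weak one, with log2 ratios of -0.28 and -0.29. The mean log2 ratio of eIF4E1 exceeded that of eIFiso-4E by 0.60. A smaller gap separated the helicase genes. tif-4A3 gave 3677 and 3102 in D11 against 3491 and 2928 in WT, and tif4A2 exceeded its mean log2 ratio by 0.39.

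eIF5A carries the modified residue hypusine and helps the ribosome through difficult peptide bonds. Its genes gave strong signals and, as deposited, included the lowest ratio of the class. eif5a was at 7313 in D11 against 8687 in WT, a log2 ratio of -0.25 as deposited. It was -0.05 after quantile normalization and -0.02 after lowess centring. tif5A gave 5728 in D11 and 7377 in WT on one probe set, a log2 ratio of -0.36, but 3312 and 3263 on the other. The -0.36 became -0.21 and -0.16 under these scalings, where the weak eIFiso-4E probe set was lowest, at -0.52 and -0.44. eIF-5, which triggers GTP hydrolysis at the start codon, gave 1865 in D11 and 1702 in WT. eIF3A, the gene for a subunit of the scaffold factor eIF3, gave 677 and 704.

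With eIF5A counted among the initiation factors, the elongation factor class held EF1A (LOC542581) alone. Its 3 probe sets gave signals of 5409, 124 and 9397 in D11 and of 5738, 137 and 9005 in WT. The median log2 ratio was -0.09 as deposited but 0.09 after quantile normalization and 0.10 after lowess centring. The array also carries EF1A control probe sets along the transcript. At the 3′ end the signal was 5889 in D11 and 6943 in WT, in the middle it was 6217 and 6541, and at the 5′ end the controls gave ratios of 0.946 and 0.989. All 3 EF1A probe sets were near-equal as deposited.

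By broad class, the 24 probe sets of cytosolic ribosomal proteins had a median log2 ratio of 0.11, with 14 higher and 10 lower. This median was between 0.04 and 0.21 under every alternative tried. For the 15 probe sets of cytosolic translation factors the median was 0.02, with a range from -0.02 to 0.15 under the alternatives. Its sign turned with median centring and without probe sets whose names end in _x_at, _s_at or _a_at. For comparison, the median as deposited was 0.03 over all probe sets and -0.03 over the brightest 25%.

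The plastid comparison rested on 1 probe set. prpl35-1 (LOC542046), for plastid ribosomal protein L35, was at 1354 in D11 against 2704 in WT, a log2 ratio of -1.0 that lay just short of the 2-fold threshold. The cytosolic median exceeded it by 1.06 on the log2 scale, and by 1.02 to 1.13 under the alternatives. As deposited, all 39 cytosolic probe sets had a higher log2 ratio than prpl35-1. After quantile normalization rps21b was lower than it (-1.03 against -0.95), and after lowess centring both were at -0.93. In the brightest 25% of the array 3.63% of all probe sets were at least 2-fold lower. A single plastid gene gives no measure of how plastid members vary, and no plastid translation factor was among the members.

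The ribosomal proteins with no assigned compartment went in opposite directions. rpl29 (LOC541790) was at 1149 in D11 against 2110 in WT, 1.84-fold lower in D11. RPS10 (LOC541869) was at 1060 in D11 against 826 in WT, a ratio of 1.28. With both counted as cytosolic, the median of the cytosolic ribosomal proteins was again 0.11.

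Probe sets of 1 gene lie on the same array and are no replicates of a genotype, but they show how far ratios for 1 gene can differ. For the 9 genes with several probe sets, without the rpp3a probe set below the floor, the range of log2 ratios had a median of 0.20 and reached 0.51 in rps6-1. In 4 of the 9 genes the probe sets lay on both sides of 0. With that rpp3a probe set included, the median range was 0.24 and 5 of the 9 genes crossed 0. The range was below 0.01 in eIFiso-4E and tif-4A3 and was 0.39 in tif5A. Beside these ranges, the difference of 0.39 between the helicase genes was within what probe sets of 1 gene showed. That of 0.60 between the cap-binding genes was above the largest of the 9 ranges, but eIF4E1 had only 1 probe set. Probe sets without a gene symbol in the RPL19 cluster, described below, ran from -0.29 to 0.94.

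**Figure D4:**
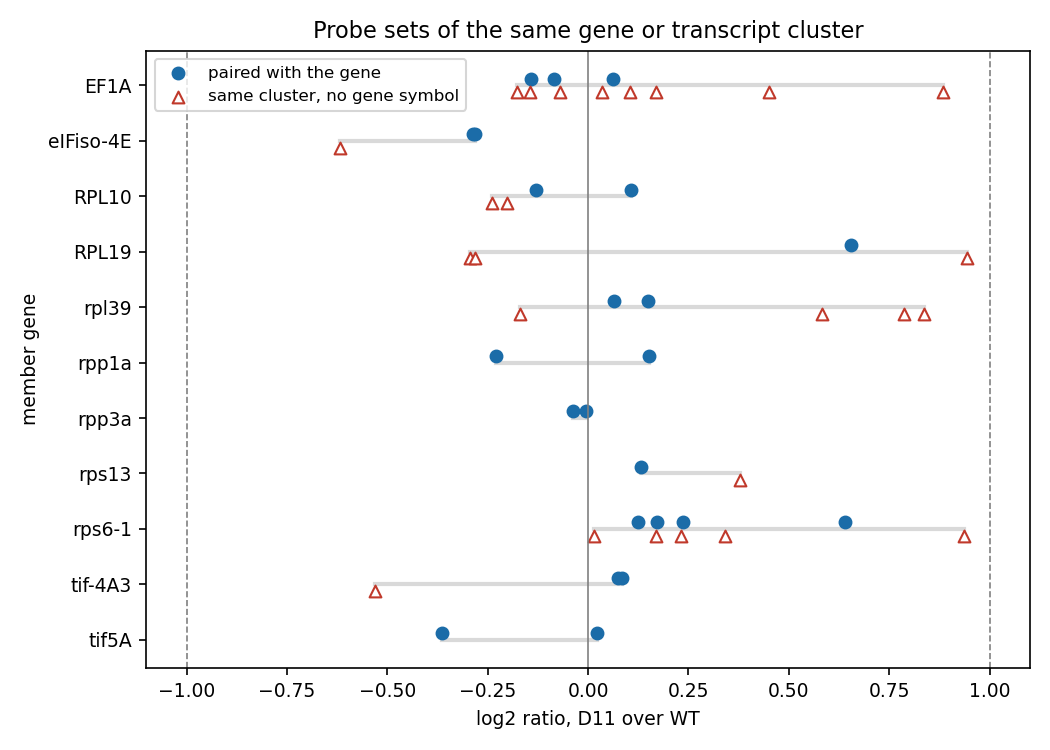
Log2 ratio of D11 over WT for probe sets above the floor in both arrays, by member gene. Filled circles are probe sets paired with the gene. Open triangles are probe sets of the same transcript cluster without a gene symbol, described below. A line runs from the lowest to the highest value of a gene over both kinds. The line is shortest for rpp3a and longest for RPL19, where it runs from -0.29 to 0.94.

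A further 26 probe sets without a gene symbol belonged to the same transcript clusters as members, by their probe set names. Their median log2 ratio was 0.07, ranging from -0.62 to 0.94, and 15 (57.7%) were near-equal. None passed 2-fold. In the RPL19 cluster one of these was at 1659 in D11 against 862 in WT, a ratio of 1.92, while the others gave ratios of 0.815 and 0.823. In the rps6-1 cluster one was at 3245 in D11 against 1696 in WT, a ratio of 1.91, and the 4 others above the floor lay between 1.01 and 1.27. In the rpl39 cluster 3 of 4 had ratios of 1.72, 1.5 and 1.79 and the other 0.889, while both rpl39 members were near-equal. Of 8 in the EF1A cluster one was at 605 in D11 against 328 in WT, a ratio of 1.84, and the others lay between 0.884 and 1.37. The one of the eIFiso-4E cluster was at 334 in D11 against 514 in WT, a ratio of 0.651. The clusters may hold transcripts of related gene copies, so these values were not added to the members.

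Among other genes tied to translation, 8 probe sets of 4 genes were found by name. TOR, the kinase that couples growth to ribosome production, gave 403 in D11 and 295 in WT, and S6K, the kinase acting on S6, gave 162 and 184. TCTP gave 8705 and 8385 in D11 against 9716 and 7583 in WT on its brightest probe sets. Of the 6 probe sets above the floor in both arrays, 0 passed 2-fold in either direction, with log2 ratios from -0.18 to 0.45. Among all probe sets above it in both arrays, 6.2% were at least 2-fold higher and 3.95% lower. With so few probe sets, a count of 0 does not set these genes apart. Over all 8, 1 (of RIP) was at least 2-fold higher and 1 (of TCTP) lower. Neither was above the floor in both arrays, so no fold is given for them. The 18S rRNA control gave 2890 in D11 and 5872 in WT, but rRNA lacks the poly(A) tail on which the labelling relies.

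Marker lists were measured to set beside the members, and signals from 1 array per genotype do not measure cell makeup. cesa10 (2603 in D11 and 3579 in WT), of the vascular list, and kn1 (1762 and 1664), of the meristem list, were above the floor in both. Summed signals were 28760 in D11 and 30031 in WT for 16 green tissue probe sets, and 17787 and 20357 for 6 of vascular and lignifying cells. Of the green tissue probe sets 11 were lower in D11, with a median log2 ratio of -0.20. At least 2-fold lower were 3 (of PPDK and PPC1, C4 cycle enzymes), against 9.83% of all probe sets, and 0 were at least 2-fold higher. Of the 13 above the floor in both arrays, 1 (of PPDK) was at least 2-fold lower, against 3.95% of all probe sets above it. The bright Cab-m7 (7115 in D11 and 7013 in WT) and rbcS (4807 and 4514) were near-equal. Of the vascular list 4 of 6 were lower, none by 2-fold, and CCR, of lignin synthesis, gave 1534 and 428, a ratio of 3.58. For 13 probe sets of 11 genes of dividing and meristem cells the summed signals were 5104 in D11 and 3565 in WT. In D11, 9 (several of them of MCM6) were at least 2-fold higher and 1 lower, against 9.93% and 9.83% of all probe sets. Of the 10 above the floor in both arrays, 6 were at least 2-fold higher and 1 lower, against 6.2% and 3.95%. pcna1, of the replication clamp, gave 526 in D11 and 95.6 in WT. kn1 and knox7 (454 and 488), also of this list, were near-equal, and cycD1 gave 33.8 and 95.3. The part of these differences in the members' ratios, that of the green tissue list in the prpl35-1 ratio included, was not tested. Of 4 pollen and anther probe sets 1 was above the floor in both arrays.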

How the data were processed

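Stem RNA of D11 and WT was amplified and labelled with a 3′ kit and hybridised to the Affymetrix Maize Genome Array, 1 array per genotype. The deposited intensities were made by the authors with MAS 5.0, a method that subtracts background, combines the probes of each set into 1 value and brings every array to a common scale. GeneSpring is named in the methods, while MAS5 and Affymetrix Expression Console, with no version, are listed in the notes of the submitters. Intensities were used as deposited, and detection calls were not used here.

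Of 17734 probe sets, 113 controls were set aside. Ratios of D11 over WT were taken on the log2 scale for the other 17621 with Python 3.11.15 and pandas 2.3.3 and checked on simulated data. Gene symbols came from the platform annotation, with names and synonyms from RefSeq. They covered 1452 probe sets, while 16168 had none and 1 had several. Names beginning with rpo belonged to the RNA polymerases rpot1 and rpoT2, whose 2 probe sets were left out.

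With 1 array per genotype there is no replicate error, so no test was run and precision is limited by the number of arrays. The members as a set are described by counts and medians beside those of all probe sets and of the brightest 25%. The spread of 63 spike controls between the arrays (SD 0.20, log2) served as the threshold past which a log2 ratio or median was called moved between settings. Genes named were the plastid member, every gene with several probe sets, every member at least 2-fold different and, per cytosolic class, up to 4 highest, 4 lowest and 3 brightest probe sets. rpl29 and RPS10, in none of those classes, and the S28 and S7 probe sets were named after their values were seen. Members and lists were chosen with earlier results of these data known. The alternatives were other scalings, signal minimums, ways to treat weak signals, 1 value per gene, and thresholds of 1.5-fold and 3-fold. A further alternative left out probe sets whose names end in _x_at, _s_at or _a_at. Counting rpl29 and RPS10 as cytosolic and leaving out prpl35-1 were added after seeing the data. Sequences and promoter motifs were not analysed here.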

Additional observations from a re-analysis of the deposited data

How the results depend on the processing

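The main limit is that 1 array per genotype leaves no replicate error. The medians of cytosolic ribosomal proteins and cytosolic translation factors, the plastid value and the cytosolic minus plastid difference moved by less than the SD of the spike controls under each alternative tried. So did the medians of the subunit, stalk, initiation and elongation classes, which were recomputed only under the scalings and treatments of weak signals. That SD, 0.20, exceeds each of these cytosolic medians in size, so a median could change sign and still count as unmoved. Those of the translation factors, the stalk and EF1A did change sign. The number of members at least 2-fold lower, 0 as deposited, was 1 after median centring (prpl35-1, log2 ratio -1.03) and 1 after quantile normalization (rps21b, -1.03). With a threshold of 1.5-fold, 3 members were higher (rpl30, RPL19 and 1 probe set of rps6-1) and 3 were lower (prpl35-1, rpl29 and rps21b), with 19% and 17.8% of all probe sets past it. Across the scalings and treatments of weak signals, rpl30 had log2 ratios from 1.5 to 1.63, prpl35-1 from -1.03 to -0.93, rpl29 from -0.90 to -0.84, and rps21b, the dimmest of these, from -1.03 to -0.62. Of the 42 probe sets, 4 moved by more than the spike spread under lowess centring, 5 under quantile normalization and 1 when weak signals were raised to the floor. Without prpl35-1 there is no plastid value. No paired analysis was possible because each genotype had 1 array.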

Other observations

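Ribosomal proteins S28 and S7 were each measured by a probe set that carries no gene symbol, so neither was a member. Both probe sets were named only in the study's list of genes that changed more than 5-fold. The S28 probe set gave 20.6 in D11 and 1.19 in WT, and the S7 probe set gave 1.13 in D11 and 20.9 in WT. All 4 values were below the control floors of 24.7 and 27.6, so no fold is given for either.

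Other probe sets of the same clusters were bright in both genotypes. In the S28 cluster, 4 others were above the floor in both arrays with ratios of D11 over WT from 0.757 to 1.0, and 3 of them were over 1000, at 2890 to 4723 in D11 and 3305 to 5015 in WT. In the S7 cluster, 8 others were above the floor in both arrays with ratios from 1.04 to 1.72. Of these, 5 were over 1000, at 3183 to 6729 in D11 and 2197 to 6476 in WT. None of these 12 probe sets differed by 2-fold.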
